A study of Mus musculus with 15 samples.

Results

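The interferon-inducible p200 genes, also called HIN-200 or PYHIN genes, form a cluster on mouse chromosome 1. The 8 members described here, Ifi203, Ifi204, Ifi205, Ifi207, Ifi209, Ifi211, Ifi213 and Mndal, were taken by gene symbol from a deposited table of 55536 genes. Their counts come from whole blood of 15 wild-type C57Bl/6 males, 10 months old. In the TBT group, 8 animals, the mother drank water with tributyltin (TBT), an organotin compound, up to weaning. The maternal dose was 0.5 mg/kg body weight daily, or 3.07 µM. The vehicle group holds 7 animals, and the labels record a liver tumor for 1 of them, vehicle 3. The offspring themselves are not described as dosed later. No label names dams or litters, so animals of a group may share a mother, and p-values then measure the spread between animals, not between litters.

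The p200 proteins carry HIN domains, which bind DNA, and most also carry a pyrin domain, which assembles signalling complexes. Type I interferon induces the genes through interferon-stimulated response elements in their promoters. In blood, they are known from myeloid cells and lymphocytes. The human relatives IFI16 and MNDA belong to the same family, as does Aim2, which senses DNA in the cytosol and starts an inflammasome.

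The promoters of the members show how alike the cluster is in sequence, so they are printed first. A RefSeq table of GRCm38.p6 promoters, from 250 bases before to 50 bases after each start site, held entries for 7 of the 8 members, all but Ifi204. It was searched on both strands for the interferon-stimulated response element pattern GAAANNGAAA, which reads TTTCNNTTTC on the other strand. The pattern lay in 7 of the 9 promoters of these 7 genes, against 3.44% of all 32851 promoters of the same length. For each gene, 50 bases around 1 element follow in the direction of transcription, with the 10 bases of the element in capitals. For Ifi209, which has no match, the copy with 1 mismatch is shown. A second promoter entry of Mndal and the bases after the start of Ifi205 each hold a further match, not shown.
Ifi213 (chr1:173599316-173599365, minus strand): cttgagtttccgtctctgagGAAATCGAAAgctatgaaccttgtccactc
Ifi209 (chr1:173630760-173630809, plus strand): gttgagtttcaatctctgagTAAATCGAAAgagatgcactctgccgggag
Ifi207 (chr1:173741821-173741870, minus strand): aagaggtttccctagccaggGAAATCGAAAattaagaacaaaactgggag
Mndal (chr1:173880194-173880243, minus strand): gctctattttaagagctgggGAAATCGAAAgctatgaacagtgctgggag
Ifi211 (chr1:173913054-173913103, minus strand): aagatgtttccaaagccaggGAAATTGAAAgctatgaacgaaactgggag
Ifi203 (chr1:173942498-173942547, minus strand): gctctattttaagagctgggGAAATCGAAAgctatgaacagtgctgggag
Ifi205 (chr1:174031860-174031909, minus strand): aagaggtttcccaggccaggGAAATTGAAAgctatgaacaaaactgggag

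The element read GAAATCGAAA in 4 of these 7 members and GAAATTGAAA in 2, Ifi211 and Ifi205, and some of the windows around it were near copies of each other. The element began 35 bases upstream of the start site in Ifi203, 36 in Mndal, 37 in Ifi211, 41 in Ifi207, 73 in Ifi213, 79 in Ifi209 and 134 in Ifi205. The 50-base windows of Ifi203 and Mndal were identical at all 50 positions. Those of Ifi211 and Ifi205 shared 46 positions, Ifi207 shared 44 with Ifi205 and 42 with Ifi211, while Ifi213 and Ifi209 shared 35 with each other and no more than that with another member. In Ifi209 the place of the element holds TAAATCGAAA, which differs from GAAATCGAAA by G1T, counted from 1 at the 5′ end of the element. The printed cores GAAATCGAAA and GAAATTGAAA, chosen after the windows were seen, lay in 54 promoters of the whole table (0.164%), and 9 of those were p200 promoters, of which 6 belonged to members. A match describes the letters of the window and is not evidence of binding.

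**Figure D1:**
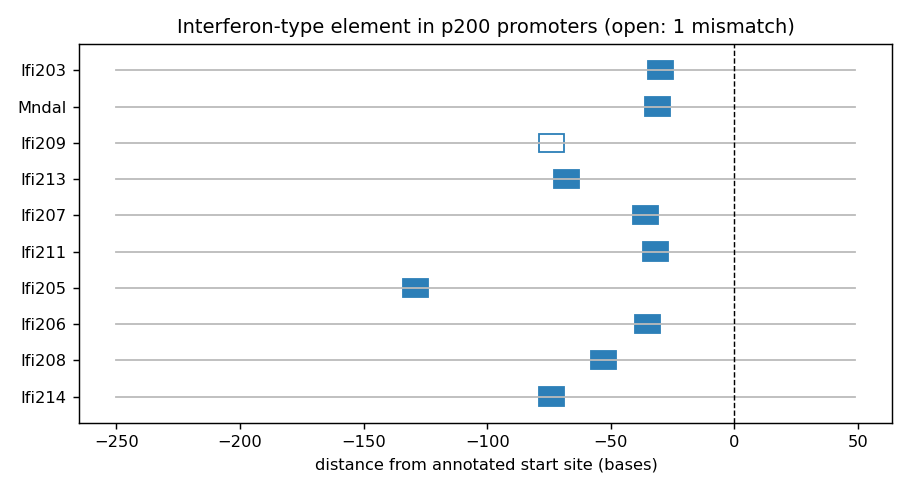
Position of the printed element in the promoters of 7 members and 3 neighbours, in bases from the RefSeq start site (0), with 1 grey line for each promoter and a filled box for the first match (open for the copy with 1 mismatch in Ifi209). The boxes begin between 35 and 79 bases upstream of the start site, except in Ifi205, where the box begins 134 bases upstream.

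The members lay between positions 173566283 and 174031810 of chromosome 1 (GRCm38, GENCODE M21), a stretch of 466 kb with 17 genes of the table, 8 of them members. Ifi213 (173566283 to 173599274), Ifi207 (173723427 to 173741747), Ifi204 (173747293 to 173766943), Ifi211 (173896345 to 173913046), Ifi203 (173920407 to 173942672) and Ifi205 (174011998 to 174031810) were annotated on the minus strand. Ifi209 (173630917 to 173647928) was on the plus strand. Mndal (173849126 to 173942491, minus strand) spanned Ifi211 and overlapped Ifi203, whose end it does not reach, and shared 37 exonic bases with Ifi203 and none with another member.

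Because reads of near-identical copies may be split or left out, the transcripts were compared in windows of 50 bases, counting a window as shared when it occurred exactly in a transcript of another gene. Ifi211 had 72.8% of its windows in another gene, mainly in Ifi205 (44.7%) and Ifi204 (30.1%), so its count is uncertain in this respect. The share was 33.7% for Ifi209, nearly all of it with Ifi214, and 20.02% for Ifi204, 19.6% for Mndal, 18.6% for Ifi205, 15.6% for Ifi213, 12.4% for Ifi203 and 7.29% for Ifi207. In Aim2 it was 0.742%. With windows of 100 bases, Ifi211 still shared 56.9%, and Ifi207 shared 0.790%. How the counting treated reads that fit several genes is not given in the sources used here.

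**Figure D2:**
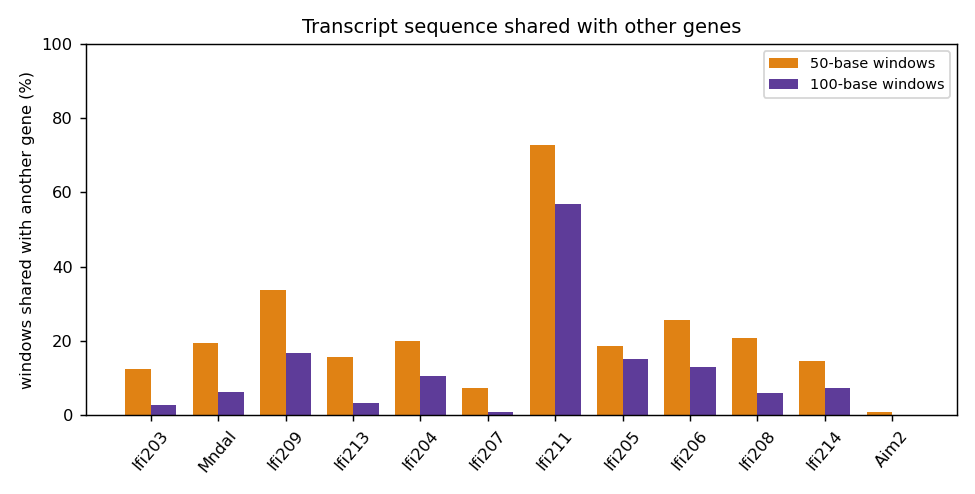
Percent of 50-base and 100-base transcript windows found exactly in a transcript of another gene, with 1 pair of bars for each gene. Ifi211 stands highest at 72.8% and 56.9%, and Aim2 lowest at 0.742% and 0.

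The 15 libraries held 6031530 to 11985305 counts, and 28.7% to 50.8% of the counts fell in haemoglobin genes. Markers of monocytes, B cells, T cells, NK cells, neutrophils, dendritic cells, platelets and erythroid cells were read in every library. TBT 2 and TBT 8 stood apart, with TMM scaling factors of 0.405 and 0.529. Vehicle 6 had the next lowest factor, 0.737, close to that of vehicle 4, 0.807, and its haemoglobin share of 34.8% was below the 44.1% of vehicle 4. An alternative leaves out TBT 2, TBT 8 and vehicle 6, the libraries with the lowest factors, together, which keeps 12 libraries. TBT 8 was the lowest and TBT 2 the next lowest animal for Ifi203, Ifi209 and Mndal. Leaving them out therefore raises the TBT level of these members and is no independent check on it. TBT 2 and TBT 8 also had summed platelet marker levels of 13200 and 13149 CPM, against at most 6424 CPM in the vehicle group. CPM here are counts scaled to the library total multiplied by its TMM factor. The low factors of TBT 2 and TBT 8 therefore raise their CPM, and the part of these factors in the platelet gap was not tested. The part of library composition in the results was not tested either.

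Levels between members were compared per kilobase of exon, from CPM on TMM-scaled library sizes, in the 7 vehicle animals. Ifi209 was the highest, with 36.3 ± 4.41 CPM per kb (SD, n = 7, range 30.9 to 43.2), followed by Mndal with 34.1 ± 4.36 (29.2 to 42.5), and these ranges overlapped. Ifi203 stood below both without overlap, at 18.0 ± 2.09 CPM per kb (14.6 to 21.3). Ifi207 (7.60 ± 4.24, range 3.90 to 16.3), Ifi213 (5.50 ± 1.59, range 3.61 to 8.32) and Ifi204 (4.20 ± 2.67, range 2.37 to 10.0) overlapped each other. Ifi211 at 1.12 ± 0.666 (0.322 to 2.40) and Ifi205 at 0.308 ± 0.255 (0.0550 to 0.794) were the lowest and also overlapped. The order was the same by the means of the 8 TBT animals, from 39.9 ± 11.3 CPM per kb for Ifi209 to 0.507 ± 0.306 for Ifi205. In the 12 libraries the order by means was the same in both groups, from 37.2 CPM per kb for Ifi209 to 0.315 for Ifi205 in vehicle animals. Aim2, for comparison, had 11.02 ± 0.868 CPM per kb in vehicle animals.

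Between TBT and vehicle animals, no p200 member passed the threshold after adjustment over all tested genes. All 8 members were measured and passed the filter on low counts, and all 8 had a fitted log2 fold change above 0, where 59.4% of all 13364 tested genes did. By edgeR's quasi-likelihood test with Benjamini-Hochberg adjustment over all tested genes, 0 of the 8 members passed an adjusted p of 0.05, where 0% of all tested genes passed. At an unadjusted p under 0.05 stood 1 member, Ifi211, where 6.33% of all tested genes did in either direction and 4.56% on the higher side. The CPM ranges of the groups overlapped for all 8 members, and 0.112% of all tested genes did not overlap. The median log2 fold change of the members was 0.49, against 0.05 over all tested genes. In simulated data the fit called only 6 of 100 genes changed by 0.5 on this scale. Missing the threshold therefore does not show that a member was unchanged. In bulk blood, fewer cells of a type and less RNA per cell cannot be told apart.

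Mndal, the mouse relative of human MNDA, had 87.6 CPM in its lowest TBT animal, a median of 141 and 167 CPM in its highest, and 106, 121 and 154 CPM in the vehicle group. TBT 8 was the lowest of all animals, vehicle 6 the lowest vehicle animal, and the group ranges overlapped. The mean was 137 ± 29.0 CPM in TBT animals (SD, n = 8) and 124 ± 15.8 CPM in vehicle animals (SD, n = 7). On the log2 scale the fitted difference was 0.15 (SE 0.15, edgeR adjusted p = 0.960). Ifi203 had 73.8, 136 and 159.9 CPM as the lowest, median and highest value in TBT animals and 98.0, 119.6 and 143 CPM in vehicle animals. Again TBT 8 and vehicle 6 were at the bottom of their groups, TBT 2 came next with 91.9 CPM, and 6 of 8 TBT animals lay above the vehicle median. The log2 fold change of Ifi203 was 0.10 (SE 0.16, 95% interval -0.23 to 0.44, edgeR adjusted p = 0.977).

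Ifi209 had 75.9, 160.1 and 173 CPM in TBT animals and 109, 123 and 153 CPM in vehicle animals. TBT 8 and TBT 2 were far below all other animals, at 75.9 and 79.1 CPM, while the other 6 TBT animals ran from 149 to 173 CPM, above 6 of 7 vehicle animals. The TBT group therefore enclosed the whole vehicle range. The log2 fold change was 0.14 (SE 0.18, 95% interval -0.24 to 0.52, edgeR adjusted p = 0.970). Ifi213 had 16.5, 49.5 and 72.0 CPM in TBT animals and 24.7, 36.6 and 56.9 CPM in vehicle animals. It showed the same outer animals, TBT 8 and TBT 4, with vehicle 3 the highest of the vehicle group. Its log2 fold change was 0.36 (SE 0.26, edgeR adjusted p = 0.897), and 0.24 without TBT 4.

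Ifi204, a relative of human IFI16 that takes part in sensing of DNA upstream of STING and binds the retinoblastoma protein and Id proteins, had 7.27, 22.5 and 41.5 CPM in TBT animals. In vehicle animals the lowest, median and highest values were 8.44, 11.9 and 35.7 CPM. TBT 2 was the lowest of all animals and TBT 3 the highest, and 7 of 8 TBT animals lay above the vehicle median. In the vehicle group, vehicle 3 stood far above the other 6 animals, which ran from 8.44 to 15.3 CPM. The mean was 24.1 ± 10.4 CPM in TBT animals (SD, n = 8) and 14.9 ± 9.50 CPM in vehicle animals (SD, n = 7). Ifi204 thus had a log2 fold change of 0.69 (SE 0.34, 95% interval -0.04 to 1.42), with an edgeR p of 0.0610 and an adjusted p of 0.803.

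Ifi207 had 22.1, 34.5 and 70.8 CPM in TBT animals and 13.3, 18.8 and 55.7 CPM in vehicle animals. All 8 TBT animals lay above the vehicle median, yet vehicle 3 lay within the upper part of the TBT range. The log2 fold change was 0.63 (SE 0.31, 95% interval -0.04 to 1.29), with an edgeR p of 0.0639 and an adjusted p of 0.810.

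Ifi211 and Ifi205 were read at low levels. Ifi211 had 1.45, 2.99 and 5.66 CPM in TBT animals and 0.575, 1.86 and 4.29 CPM in vehicle animals, from 5 to 79 counts in a library. The groups overlapped, with TBT 2 and vehicle 4 the lowest of their groups. Its log2 fold change was 0.81 (SE 0.34, 95% interval 0.08 to 1.53), with an edgeR p of 0.0309 and an adjusted p of 0.732. Without TBT 3, TBT 4, TBT 5, vehicle 2, vehicle 4, vehicle 5 or vehicle 7, each left out alone, 0 members had an unadjusted p under 0.05. Ifi205, which has been reported to regulate the inflammasome adaptor Asc, had 0.192, 1.98 and 4.49 CPM in TBT animals and 0.230, 1.104 and 3.32 CPM in vehicle animals, from 1 to 58 counts. The TBT range enclosed the vehicle range, and the log2 fold change was 0.75 (SE 0.49, 95% interval -0.28 to 1.79, edgeR adjusted p = 0.872).

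**Figure D3:**
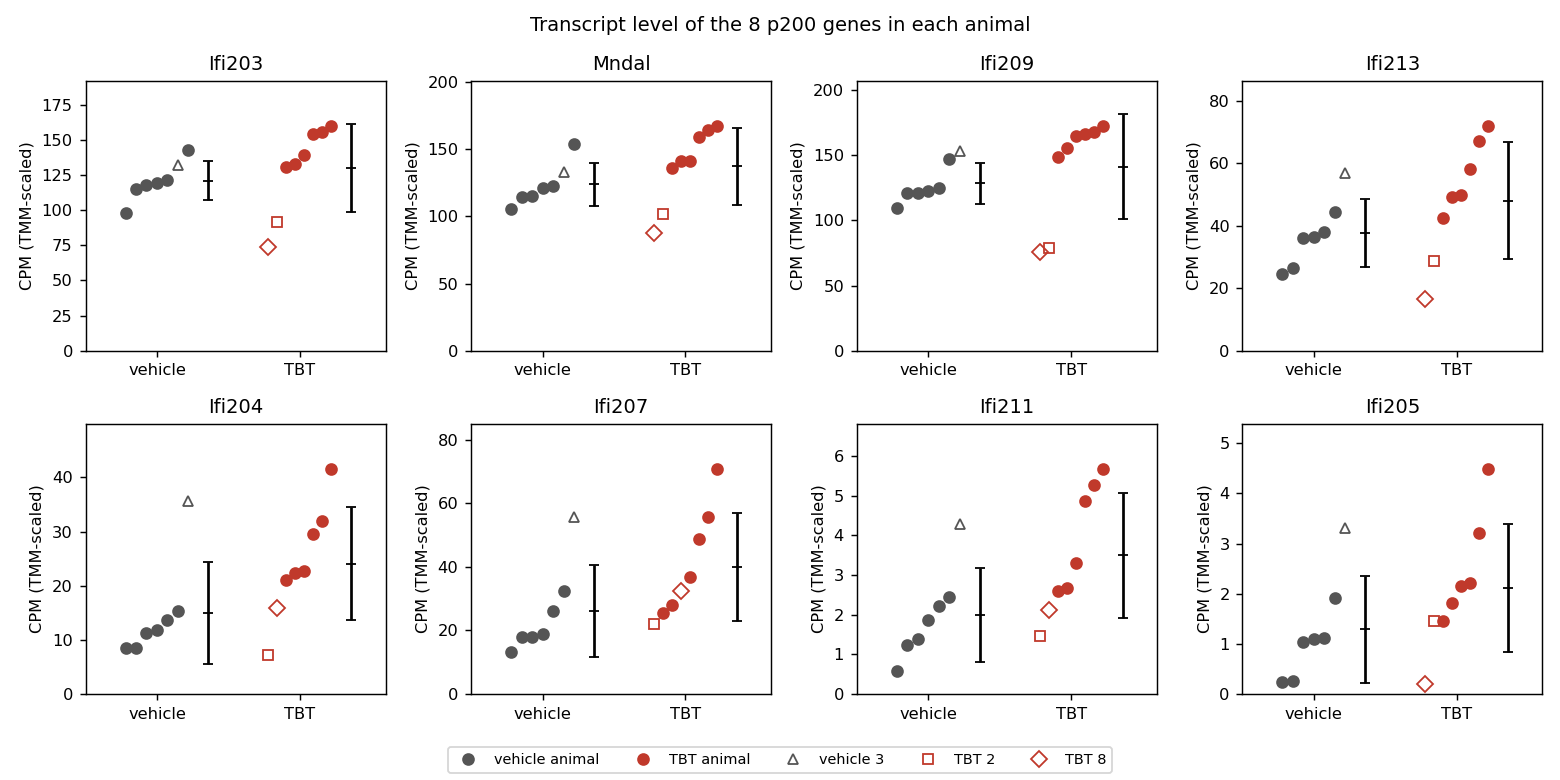
CPM (TMM-scaled, vertical axis from 0) of each member in each animal, sorted by value within a group, with 7 vehicle and 8 TBT points a gene, and the group mean ± SD in black beside them (open marks for vehicle 3, TBT 2 and TBT 8). The groups overlap for all 8 members, and vehicle 3 is the highest vehicle animal for Ifi204, Ifi205, Ifi207, Ifi209, Ifi211 and Ifi213.

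**Figure D4:**
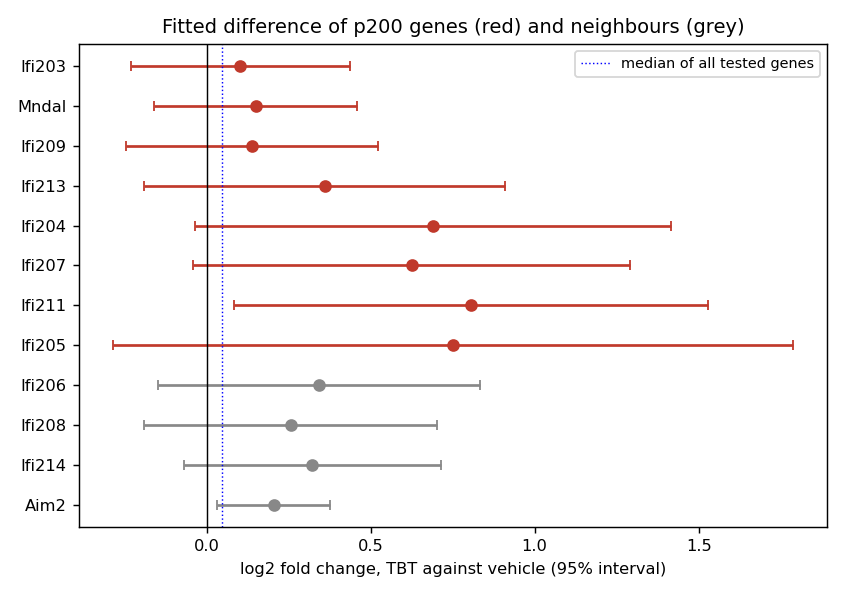
Fitted log2 fold change of TBT against vehicle (horizontal axis) for each member in red and 4 neighbours in grey, with 95% intervals from edgeR as bars and the median of all tested genes as a dotted line. All 8 members lie above 0, from 0.10 for Ifi203 to 0.81 for Ifi211, and of the intervals drawn only those of Ifi211 and Aim2 lie wholly above 0.

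The vehicle animal with a recorded liver tumor, vehicle 3, carried much of the vehicle spread of 4 members. It had 35.7 CPM of Ifi204 against 11.5 ± 2.73 (SD, n = 6) in the other vehicle animals, 55.7 CPM of Ifi207 against 21.0 ± 6.85, 4.29 CPM of Ifi211 against 1.61 ± 0.689, and 3.32 CPM of Ifi205 against 0.947 ± 0.631. Mndal, at 133 CPM against 122 ± 16.7, and Ifi203, at 132 against 119 ± 14.4, lay within the spread. Ifi213, at 56.9 CPM against 34.4 ± 7.42, and Ifi209, at 153 against 124 ± 12.3, were also above the range of the other 6. Vehicle 3 had the lowest summed platelet and erythroid marker levels of the vehicle group, 2366 and 169279.7 CPM. Vehicle 3 was the highest vehicle animal for these 4 members, so leaving it out raises their fold changes and is no independent check on them. Without vehicle 3 the log2 fold change was 1.06 for Ifi204, 1.26 for Ifi205, 0.92 for Ifi207 and 1.12 for Ifi211. These 4 members then had unadjusted edgeR p-values under 0.05, where 6.95% of genes did in either direction and 4.89% on the higher side. Their lowest adjusted p was 0.521, so 0 members passed the threshold without this animal. The tumor is recorded for 1 animal, so its part in these levels was not tested.

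Without TBT 2, TBT 8 and vehicle 6 all 8 members again had a fold change above 0, where 52.8% of all tested genes did. The unadjusted edgeR p was under 0.05 for 6 members (Ifi203, Ifi204, Ifi209, Ifi211, Ifi213 and Mndal), where 17% of genes had such a p in either direction and 7.01% on the higher side. The log2 fold changes were then 0.21 for Ifi203, 0.25 for Mndal, 0.30 for Ifi209, 0.50 for Ifi213, 0.68 for Ifi207, 0.82 for Ifi204, 0.91 for Ifi205 and 0.96 for Ifi211. The lowest adjusted p was 0.101, for Ifi209, and 0 members passed. In this setting 0 of 7 platelet markers had a fold change above 0, with a median of -0.84, and 0 of 6 erythroid markers, with a median of -0.51. The part of these in the members' values was not tested. On CPM of the plain library size, without TMM scaling, TBT 2 and TBT 8 had 37.2 and 39.0 CPM of Ifi203 and 41.1 and 46.3 CPM of Mndal. With other tests 0 members passed the adjusted threshold either. DESeq2 gave an unadjusted p under 0.05 for 3 members (Ifi204, Ifi207 and Ifi211), where 7.95% of genes had one in either direction and 5.46% on the higher side. With limma-voom and quality weights it was 7 members, all but Ifi203, where 20% and 10.8% of genes had one. With the replicate number as a block in edgeR it was 5 members (Ifi204, Ifi205, Ifi207, Ifi211 and Ifi213), where 8.35% and 5.93% did. Replicate 8 holds TBT 8 alone, so TBT 8 adds nothing to the fitted group difference in this block setting. Over all 8 members, TBT 2 and vehicle 6 were among the 5 lowest animals for 7 members, vehicle 2 and vehicle 4 for 6, and TBT 8 and vehicle 7 for 5. TBT 4 was among the 5 highest for all 8.

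The members differed in how much they varied among animals of 1 group. In vehicle animals the coefficient of variation was 11.6% for Ifi203, 12.2% for Ifi209 and 12.8% for Mndal, below the 21.4% that was the median over all tested genes. It was 28.9% for Ifi213, 55.8% for Ifi207, 59.6% for Ifi211, 63.6% for Ifi204 and 82.8% for Ifi205. In TBT animals it was 24.1% for Ifi203, 28.4% for Ifi209 and 21.1% for Mndal, against a median of 27.7% over all tested genes, and without TBT 2 and TBT 8 it was 8.67%, 5.43% and 8.93%. The summed level of the 8 members was 526.2 ± 132 CPM in TBT animals (SD, n = 8, range 304 to 663) and 455 ± 70.2 CPM in vehicle animals (SD, n = 7, range 370.4 to 574). Over the 12 libraries it was 595 ± 37.4 CPM (SD, n = 6, range 553 to 663) against 469 ± 65.0 CPM (SD, n = 6, range 408 to 574). The sums overlapped either way, and 3 genes, Ifi203, Ifi209 and Mndal, made up most of them.

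Across animals, the levels of members moved together to different degrees. For each of the 28 pairs, log2 CPM with the group mean taken off was correlated over 15 libraries. With permutation within groups and Benjamini-Hochberg adjustment over the 28, 16 pairs had an adjusted p under 0.05. The share of such pairs among other genes is not given, so this count is no result about the family. The part of library composition in these r was not tested. Ifi203 and Mndal had the highest Pearson r, 0.98 (rho 0.94, both permutation p-values at most 4e-05, adjusted 0.000140 for r). Their r was 0.94 without TBT 2 and TBT 8, which lay farthest from the median of Ifi203. The genes share 37 exonic bases and 3.34% of the 50-base windows of Ifi203. The part of shared reads or of promoter likeness in this r was not tested. Ifi204 and Ifi211 had an r of 0.86 (rho 0.87, permutation p = 4e-05, adjusted 0.000280), and 0.81 without TBT 3 and vehicle 3. This pair shares 30.1% of the 50-base windows of Ifi211, and the part of shared reads in its r was not tested. Ifi207 and Mndal had the lowest r, 0.24 (rho 0.22, permutation p = 0.396), and 0.26 without TBT 3 and vehicle 4.

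A division into 2 sets of 4 genes was drawn after these values were seen and is a description only. Among Ifi203, Ifi209, Ifi213 and Mndal the r ran from 0.89 to 0.98, and from 0.62 to 0.93 in the 12 libraries without TBT 2, TBT 8 and vehicle 6. Among Ifi204, Ifi205, Ifi207 and Ifi211 it ran from 0.59 to 0.86, and from 0.69 to 0.88 in the 12. Between the sets it ran from 0.24 to 0.69, and from -0.22 to 0.70 in the 12. The sets are not cleanly apart. Ifi204 with Ifi205, in 1 set, had an r of 0.59 that was 0.34 without TBT 3 and vehicle 3 (permutation p = 0.0326, adjusted 0.0536). Ifi204 with Ifi209, across the sets, had an r of 0.69 that was 0.76 without these 2 animals (permutation p = 0.00482, adjusted 0.0123). The first set holds the 3 members with the lowest coefficients of variation in vehicle animals, and Ifi213. In the second set, Ifi211 has 44.7% of its 50-base windows in Ifi205 and 30.1% in Ifi204. The part of shared reads in the r of this set was not tested.

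**Figure D5:**
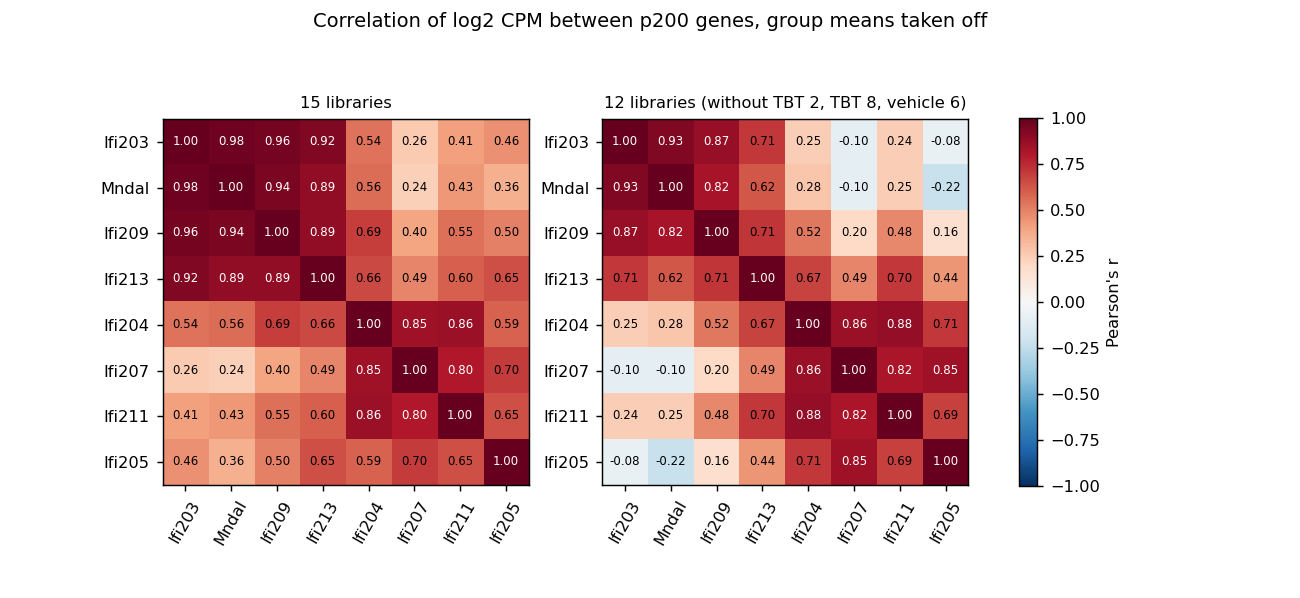
Pearson r of log2 CPM for each of the 28 member pairs after the group means were taken off, as coloured grids over 15 libraries (left) and 12 libraries (right). The upper left block of Ifi203, Mndal, Ifi209 and Ifi213 holds 0.89 to 0.98 over 15 libraries, and the pairs between the blocks run from 0.24 to 0.69.

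Relations of members with blood cell markers were partly shared and partly not. Each member was correlated with the mean log2 level of 8 marker lists, 64 relations in all. Of these, 23 had an adjusted permutation p under 0.05 for Pearson r, and the share of such relations among other genes is not given. Ifi207 followed the monocyte list, with r 0.82 and rho 0.81 (permutation p = 0.000260 and 0.000720, adjusted 0.00459 and 0.00914). Its r was 0.74 without TBT 3 and vehicle 4, and 0.89 in the 12 libraries without TBT 2, TBT 8 and vehicle 6. Ifi205 had r 0.56 and rho 0.67 with this list (permutation p = 0.0391 and 0.0111, adjusted 0.0834 and 0.0354). Its r was 0.89 without vehicle 4 and TBT 8, and 0.89 in the 12 libraries. Mndal, in contrast, had an r of -0.28 with the monocyte list (rho -0.31, permutation p = 0.308 and 0.271, adjusted 0.429 and 0.354), and -0.37 without TBT 2 and TBT 8.

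The platelet list ran opposite to all 8 members, with r from -0.93 to -0.56, and 7 of the 8 relations, all but that of Ifi207, had an adjusted permutation p under 0.05. In the 12 libraries these r ran from -0.84 to -0.50. Ifi209 had the lowest, with r -0.93 and rho -0.80 (permutation p = 0.00134 and 0.00233, adjusted 0.00896 and 0.0136), and -0.78 without TBT 2 and TBT 8. Ifi203 had r -0.87 and rho -0.76 (permutation p = 0.00360 and 0.00503, adjusted 0.0183 and 0.0215), and -0.67 without TBT 2 and TBT 8. Ifi204 had r -0.84 and rho -0.89 (permutation p = 0.000160 and 0.000110, adjusted 0.00459 and 0.00704), and -0.82 without TBT 3 and vehicle 3.

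By Pearson r, the T cell list ran with 4 members at an adjusted permutation p under 0.05. Ifi213 had r 0.87 and rho 0.79 (permutation p = 0.000360 and 0.00131, adjusted 0.00459 and 0.00932), and 0.69 without vehicle 6 and TBT 8. Mndal had r 0.85 and rho 0.79 (permutation p = 0.000360 and 0.000820, adjusted 0.00459 and 0.00914), and 0.69 without TBT 2 and TBT 8. Ifi203 had r 0.85 and rho 0.74 (permutation p = 0.000370 and 0.00211, adjusted 0.00459 and 0.0135), and 0.66 without TBT 2 and TBT 8. Ifi209 had r 0.80 and rho 0.77 (permutation p = 0.000980 and 0.000940, adjusted 0.00784 and 0.00914), and 0.63 without these 2 animals. In the 12 libraries the 4 values were 0.58, 0.58, 0.51 and 0.49. Ifi204 passed by rho only, with r 0.52 and rho 0.72 (permutation p = 0.0616 and 0.00300, adjusted 0.118 and 0.0160). Its r was 0.60 without TBT 3 and vehicle 3, and 0.39 in the 12 libraries. With the B cell list, Ifi203, Ifi209 and Mndal had r of 0.72, 0.75 and 0.74 (adjusted permutation p = 0.0341, 0.0219 and 0.0237), and 0.49, 0.45 and 0.52 without TBT 2 and TBT 8. With the NK cell list they had 0.61, 0.57 and 0.68 (adjusted permutation p = 0.0183, 0.0211 and 0.00896), and 0.22, 0.20 and 0.47 in the 12 libraries. The erythroid list ran opposite to them, with r -0.83, -0.90 and -0.82 (adjusted permutation p = 0.0183, 0.00459 and 0.0183), and -0.69, -0.73 and -0.62 in the 12 libraries. Mndal had r 0.65 with the neutrophil list, and Ifi205 had 0.68 with the dendritic cell list (adjusted permutation p = 0.0330 and 0.0239). In the 12 libraries these r were 0.49 and 0.67. TMM scaling and library composition are shared by every point of these relations, and their part was not tested.

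Between the groups, 0 genes of the 8 marker lists passed the threshold. Of the monocyte markers, 10 of 10 had a fold change above 0, where 59.4% of all tested genes did, with a median of 0.19 on the log2 scale. B cell markers ran the other way, with 9 of 10 below 0 and a median of -0.22, and erythroid markers had 6 of 6 above 0 and a median of 0.24. The medians were 0.05 for T cell, 0.03 for NK cell, 0.07 for neutrophil, 0.19 for dendritic cell and 0.01 for platelet markers. The medians in the 12 libraries were 0.22 for monocyte, -0.09 for B cell, 0.16 for T cell, -0.51 for erythroid and -0.84 for platelet markers. There 7 of 10 monocyte, 1 of 10 B cell and 0 of 6 erythroid markers were above 0, where 52.8% of all tested genes were. The summed monocyte level ran from 1346 to 5162 CPM in TBT animals, with TBT 8 the highest, and from 1241 to 2459 CPM in vehicle animals. Every listed marker in the table was read in every library. The part of cell composition in the fold changes of the members was not tested.

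By the likeness of log2 CPM over 15 libraries, after the group mean was taken off, 11123 other genes were ranked for each member. Samd9l and Naa15 were among the 3 nearest genes of both Mndal (r 0.97 and 0.95) and Ifi203 (r 0.96 and 0.97). Ifi209 was nearest to Smchd1 (r 0.98), a chromatin protein of X inactivation, Gramd3 (0.96) and Shisa5 (0.96). Ifi213 was nearest to its neighbour Ifi206 (r 0.97), to Tap1, a subunit of the peptide transporter for MHC class I (0.94), and to Thy1, a T cell surface protein (0.93).

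The other 4 members had other nearest genes. Ifi204 was nearest to Ifi27l2a, itself an interferon-induced gene (r 0.95), Camk2d (0.94) and Nfkbia, the NF-kB inhibitor (0.93). Ifi211 was also nearest to Ifi27l2a (r 0.91), then to Vsir (0.90) and Trio (0.89). Ifi207 was nearest to Cd300c2 (r 0.94), Plbd1 (0.93) and Mpeg1 (0.93), a macrophage gene that is on the monocyte list. Ifi205 was nearest to Gpr132 (r 0.93), Il10ra, a chain of the interleukin 10 receptor (0.93), and Tgfbr3 (0.91). The summed level of the 8 members was nearest to Gramd3, Ifi206 and Smchd1, each with r 0.95. In the 12 libraries the r of the named genes with single members ran from 0.70 (Ifi213 with Thy1) to 0.96 (Ifi207 with Plbd1), and those with the summed level from 0.69 to 0.79. These are the highest of many values over libraries that share composition, and are given as a description.

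Among the neighbours, Aim2 had narrow ranges, with 37.3, 45.4 and 50.8 CPM as the lowest, median and highest value in TBT animals and 34.1, 39.6 and 42.3 CPM in vehicle animals. The groups overlapped, and 7 of 8 TBT animals lay above the vehicle median. Its log2 fold change was 0.20 (SE 0.08), with an edgeR p of 0.0233 and an adjusted p of 0.732. Ifi208, between Ifi209 and Ifi207, had 25.9 ± 8.11 CPM (SD, n = 8) against 21.8 ± 5.62 (SD, n = 7), or 0.26 on the log2 scale (edgeR adjusted p = 0.924). The pseudogene Ifi203-ps was read near 1 CPM, with a log2 fold change of 0.48 (SE 0.44, edgeR adjusted p = 0.946). Ifi206 and Ifi214 lie outside the span of the members and were added after their values were seen. Their log2 fold changes were 0.34 and 0.32 (edgeR adjusted p = 0.883 and 0.854). Ifi202b, known for expression that depends on the mouse strain, had counts in 2 of 15 libraries, 7 in TBT 7 and 1 in vehicle 3. Gm44339, Gm18752, Gm7871, Gm7897, Gm38050 and Gm18445, predicted genes of the same stretch, did not pass the filter on low counts.

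The genes that act around the p200 family were followed in 4 lists, and 0 genes of each passed the adjusted threshold. The lists were chosen with earlier results of these data known, so what follows is a description. Their counts are read against the 59.4% of all tested genes with a fold change above 0 and the 4.56% with an unadjusted p under 0.05 on the higher side. Of 23 tested genes of DNA sensing, 15 had a fold change above 0 and the median log2 value was 0.07, with unadjusted p under 0.05 for 4 on the higher and 1 on the lower side, a share above 0 near that of all genes. Over the 12 libraries 21 of 23 were above 0, where 52.8% of all genes were, with a median of 0.17. The smallest p-values belonged to Ddx41, a helicase reported to sense DNA (log2 fold change -0.42), Aim2, and Zbp1, a sensor of Z-form nucleic acid (0.45), with edgeR adjusted p-values of 0.711, 0.732 and 0.744. Of 18 tested genes of interferon signalling, upstream of the p200 promoters, 13 had a fold change above 0, with a median of 0.10 and with 2 and 1 at an unadjusted p under 0.05. They included Usp18, an inhibitor of the receptor (0.45), Tyk2, a kinase of the receptor (-0.28), and Irf7, a transcription factor of the interferon genes (0.51), with edgeR adjusted p-values of 0.726, 0.726 and 0.779. Over the 12 libraries 14 of 18 were above 0, with a median of 0.11, and Irf7 had 0.24.

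Interferon effectors, which share the induction route of the p200 genes, had 30 of 31 fold changes above 0 and a median of 0.40. As this list was also chosen with earlier results of these data known, its counts are a description and no support. An unadjusted p under 0.05 was found for 12, all on the higher side. Over the 12 libraries 25 of 31 were above 0, with a median of 0.41, and 15 on the higher and 3 on the lower side had such a p, where 7.01% of all genes had one on the higher side. Gbp7, a guanylate-binding protein, had 37.8 ± 5.52 CPM (SD, n = 8) against 26.1 ± 4.16 (SD, n = 7), or 0.53 on the log2 scale (SE 0.11, edgeR adjusted p = 0.321). Xaf1, a pro-apoptotic gene, and Herc6, an ISG15 ligase, each had a log2 fold change of 0.62 (SE 0.16, edgeR adjusted p = 0.542 and 0.558). For these 3 the log2 fold changes in the 12 libraries were 0.41, 0.63 and 0.46, with a lowest adjusted p of 0.0727. Whether the p200 members differed from these effectors in response was not tested.

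The partners of p200 proteins in growth control had 11 of 14 tested genes above 0 and a median of 0.03, and in the 12 libraries 7 of 14 and a median of 0.02. The smallest p belonged to Rbl1, a relative of the retinoblastoma gene (log2 fold change 0.27, edgeR adjusted p = 0.746), and it had 0.12 in the 12 libraries. Id3, an inhibitor of helix-loop-helix factors, had a log2 fold change of -0.34 (edgeR adjusted p = 0.883), and -0.20 in the 12 libraries. Rb1, the retinoblastoma gene itself, had 0.37 (edgeR adjusted p = 0.905), which was -0.18 without TBT 2, TBT 8 and vehicle 6 and -0.062 with limma-voom.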

How the data were processed

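Per the labels' protocols, whole blood went through RNeasy extraction with DNase treatment, and libraries followed the TruSeq Stranded Total RNA protocol. The deposited values were whole-number counts per gene, made by the authors with Trim Galore, HISAT2 on mm10 and featureCounts, per the submitters' processing notes. Tool versions, annotation release, strand setting and treatment of reads with several matches were not given in the sources used here. Without a known strand setting, antisense reads may not have been told apart.

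The counts were used as deposited. No library was a copy of another of its group (chi-square per gene of at least 10.9 for each pair). Genes were filtered with filterByExpr by group (13364 kept), normalized by TMM and tested with edgeR 4.0.16 (R 4.3.3) by robust quasi-likelihood fits without covariate, at a Benjamini-Hochberg adjusted p of 0.05 over the whole set. The common coefficient of biological variation came to 0.290. CPM are on TMM-scaled library sizes, and log2 CPM used a prior count of 2. On simulated data of 13364 genes, the fit called 64 of 100 genes changed by 1 on the log2 scale and 6 of 100 changed by 0.5. Depth was 6031530 to 11985305 counts a library, so members read below 10 counts in some libraries are imprecise.

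Correlations were tested with 100000 permutations within groups, whose smallest p is 1e-05. Alternatives were DESeq2 1.42.0, limma-voom (limma 3.58.1), other scalings and filters, a replicate block, an exact permutation test over 6435 splits (smallest p 0.000155) and leaving out libraries. Gene identifiers were matched to GENCODE M21 on GRCm38 (55450 of 55536), and promoters are from RefSeq GRCm38.p6.

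Named genes were the 8 members, the other genes of their stretch and Aim2, the 3 tested genes with the smallest p of each of 4 pathway lists, and the 3 genes most like each member with a mean of at least 1 CPM. The lists were DNA sensing, interferon signalling, interferon effectors and growth control partners, with markers of 8 blood cell types. The members and lists were chosen with earlier results of these data known. A gene among those most like the members and a further promoter pattern are not reported here.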

Additional observations from a re-analysis of the deposited data

Results flagged for a closer look

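Ifi204 in vehicle 3, the animal with a recorded liver tumor, stood at 35.7 CPM, far from the other 6 vehicle animals. Its gap to the nearest of them was 0.750 of the whole range of the group, above Dixon's 95% critical value of 0.568 for 7 samples. The 8 members were looked at in both groups, 16 groups of values in all, and chance alone marks about 1 in 20 groups.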

How the results depend on the processing

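The number of p200 members past the adjusted threshold was 0 under each of the 26 alternatives, and the median log2 fold change of the members ran from 0.38 (without TBT 4) to 0.79 (limma-voom). Over all tested genes the count past the threshold, 0 by edgeR, was 19 with DESeq2 (18 higher), 22 with limma-voom and quality weights (19 higher), 2 without the low-count filter, 1 with the replicate block and 7 without TBT 2, TBT 8 and vehicle 6 (3 higher). Of the interferon effectors, 1 passed with DESeq2 (Gbp7) and 2 with limma-voom (Gbp7 and Xaf1). Without the low-count filter the median over all genes was -0.06. Rb1 changed sign, to -0.062 with limma-voom and -0.18 without TBT 2, TBT 8 and vehicle 6, and the cause was not tested. In all, 5 of 598 values of single genes changed side or sign. Single libraries moved some member values by over 1.5 times. Ifi203 was 0.06 without TBT 1 or vehicle 6, 0.04 without TBT 4, 0.05 without TBT 7 and 0.17 without TBT 8. Ifi209 was 0.08 without TBT 4, 0.09 without TBT 6 or TBT 7 and 0.21 without TBT 8. Mndal was 0.09 without TBT 4 or TBT 7. Scaling by library size alone, chosen after seeing the data, gave members from 0.30 to 0.91.

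Same-numbered pairs had correlations of deviations from -0.23 to 0.51, 2 of 7 over 0.1, and 1 of 7 TBT animals matched its own number best. Vehicle 3 was the best match of TBT 3, TBT 4, TBT 5, TBT 6 and TBT 7, so 1 animal weighs heavily here. These values cannot decide whether the replicate numbers mark a pairing of litters or of collection. With the replicate block, where TBT 8 adds nothing to the fitted group difference, the lowest edgeR adjusted p of a member was 0.435. Depth limits Ifi205 and Ifi211, read at 1 and 5 counts in their lowest libraries.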

Other observations

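The make-up of the summed p200 level differed between animals. Ifi204, Ifi207, Ifi211 and Ifi205 together held 13.2 ± 4.23% of it in TBT animals (SD, n = 8, range 8.61% to 20.8%) and 9.39 ± 3.95% in vehicle animals (SD, n = 7, range 5.55% to 17.2%). The highest shares were those of TBT 3 and vehicle 3 within their groups, and vehicle 4 had the lowest share of all. These 4 genes were put together after their values were seen, so no test is given.

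The promoter windows of 3 neighbours outside the members were near copies of member windows. The 50 bases around the element of Ifi208 were identical to those of Ifi213, those of Ifi206 matched Ifi213 at 49 positions, and those of Ifi214 matched Ifi209 at 45. Ifi214 carries GAAATCGAAA where its near copy in Ifi209 holds TAAATCGAAA. In vehicle animals Ifi209 had 36.3 ± 4.41 CPM per kb and Ifi214 had 2.97 ± 0.440 (SD, n = 7), and Ifi209 shares 33.4% of its 50-base transcript windows with Ifi214, so reads of this pair may have been split.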
